A study of Mus musculus with 18 samples.

Results

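The genes described here are Nr1h5, Tcl1, Ooep, Galnt6, Fbxo15, Cbln1, Trh, Pla2g1b, Dnah8 and H2ax, 10 of the 19937 genes measured on the arrays. They were chosen by their array values, because they differed between 2i converted cells, full iPS cells and J1 ES cells in earlier results on these same arrays. Their differences among those groups are therefore given as a description, with no test. Each gene had 1 probe set of its own, and H2ax had a further probe set that it shares with other histone genes.

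The samples were 18 arrays in 6 groups of 3. CD1 mouse embryonic fibroblasts (MEFs) at low passage were the starting cells, and retroviruses pMX-Oct4, pMX-Klf4 and pMX-Sox2 had been used to make the iPS lines from them. EOS3F-24 was labelled a partial iPS line, and EOS3F-28 and EOS3F-29 were labelled full iPS lines. The converted cells were EOS3F-24 treated with 2i, here a MEK inhibitor at 2 μM plus a GSK inhibitor at 12 μM, in ES medium with LIF. J1 is a mouse embryonic stem (ES) cell line. All iPS and J1 cells were grown on arrested feeder cells with LIF, the EOS3F lines were also under puromycin at 1 μg/mL, and the MEFs were grown without either. Each full or partial line is 1 clone, and the converted cells come from the partial line. J1 cells did not come from the CD1 fibroblasts, and no puromycin is listed for them. Cell origin, reprogramming and puromycin therefore cannot be told apart in comparisons with J1, nor can 2i where converted cells are compared with J1. Where converted cells are compared with the full lines, which are other clones without 2i, clone and 2i cannot be told apart either. The labels do not say whether replicate arrays came from separate cultures, so p-values reflect only the variation from array to array, possibly technical.

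Mouse ES cells in serum and LIF are held in a self-renewing state by the transcription factors Pou5f1 (Oct4), Sox2 and Nanog, joined by Esrrb, Klf and other factors that mark the naive state. Inhibiting MEK blocks the differentiation signal of ERK, and inhibiting GSK3 stabilises beta-catenin, and together these steer cells toward that naive state. The 10 genes do not form 1 pathway. Fbxo15 and Tcl1 are long-used markers of ES cells, Ooep belongs to a complex of the oocyte and early embryo, and the others encode a nuclear receptor, a glycosyltransferase, secreted proteins, a flagellar motor subunit and a histone.

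All values are log2 array values, where a difference of 1 is a 2-fold change, and differences are given with their SE. Array medians lay between 3.92 and 4.11, and replicate arrays correlated at 0.970 to 0.992 over genes. The mean of 22 fibroblast and feeder markers was 9.20 to 9.49 on the MEF arrays and 6.50 to 8.54 on the arrays of feeder-grown cells. Replicate 1 had the highest such mean in each feeder-grown group, from 7.69 in J1 and converted cells to 8.54 in EOS3F-29. On that array all 10 genes were at their lowest in EOS3F-29, 9 in EOS3F-28, 8 in converted cells, 7 in partial cells and 3 in J1 cells. The feeder share of this spread was not tested, and values without these 5 arrays are given where they change a call. These are bulk samples, so fewer expressing cells and less RNA per cell cannot be told apart. Overlap of arrays is described for single genes below. Over all genes, arrays did not overlap for 15.7% between converted and J1 cells. The share was 8.27% between converted and full iPS cells and 7.4% between full iPS and J1 cells.

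Core and naive pluripotency genes were set beside the 10 genes, with the calls over all genes as background. Of 18 core pluripotency genes measured, none passed the limma test at an adjusted p under 0.05 between converted and J1 cells, where 1.72% of all genes did. The same test called 6 higher and 1 lower in converted than in full iPS cells (5.16% of all genes called), and 4 lower in full iPS than in J1 cells (4.76%). Of 16 naive genes, the test called 2 lower in converted than in J1 cells (Socs3 and Lifr, parts of LIF signalling), 6 higher in converted than in full iPS cells and 10 lower in full iPS than in J1 cells. Pou5f1 differed by 0.05 ± 0.14 between converted and full iPS cells (adjusted p = 0.918). The full lines themselves differed in Pou5f1 by 0.90 ± 0.16 (EOS3F-28 minus EOS3F-29, adjusted p = 0.0124). Their means were 10.04 and 9.15, on either side of 9.64 in converted cells. Nanog was 0.77 ± 0.19 higher in converted than in full iPS cells (adjusted p = 0.0273). Esrrb, a naive factor, was 1.21 ± 0.15 higher in converted than in full iPS cells (adjusted p = 0.000132) and differed by 0.10 ± 0.17 from J1 cells (adjusted p = 0.937). Zfp42 (Rex1) was 1.05 ± 0.19 lower in full iPS than in J1 cells (adjusted p = 0.00381). Sox2 missed the threshold, at 0.62 ± 0.18 lower in full iPS than in J1 cells (adjusted p = 0.0524). The 10 genes were picked as differing while core pluripotency genes agreed on these same arrays, so the core values describe that choice and do not test it, and the calls for full iPS cells go partly against it. A gene that was not called is not shown to be level.

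**Figure D1:**
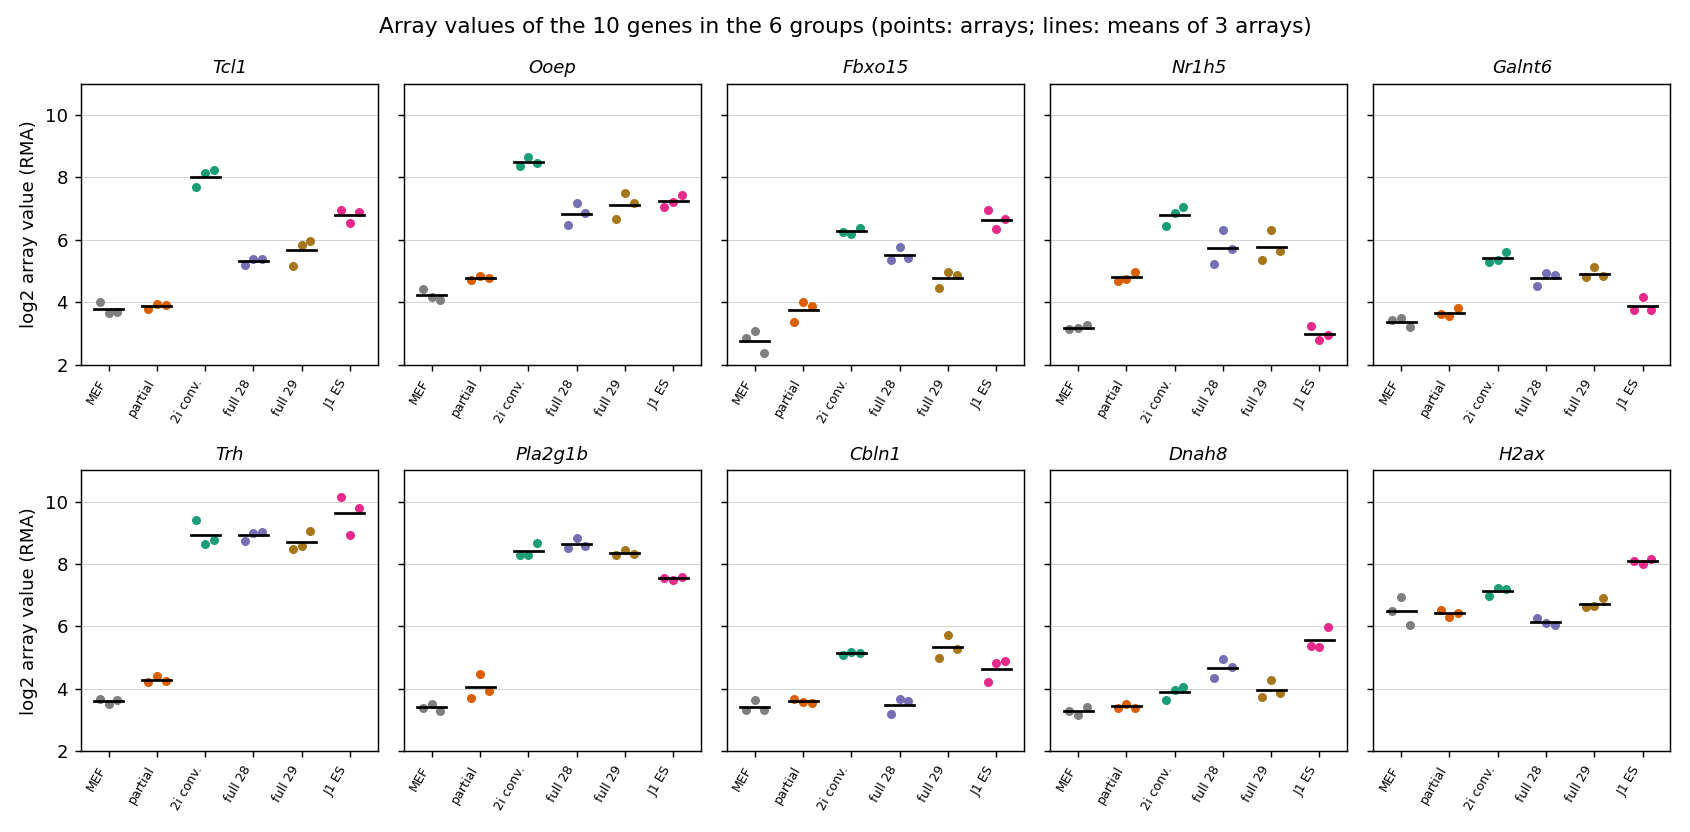
Log2 array values (y axis) of the 10 genes in the 6 groups (x axis), with a point for each array and a line for the mean of 3 arrays. Nr1h5 lies between 2.80 and 3.24 in J1 cells against 5.23 to 7.03 in the converted and full iPS cells, and Cbln1 lies between 3.18 and 3.68 in EOS3F-28 against 4.99 to 5.72 in EOS3F-29.

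Nr1h5, Tcl1, Ooep and Galnt6 had their highest mean in the 2i converted cells. Nr1h5 encodes FXR-beta, a nuclear receptor that responds to the sterol lanosterol in mice. Its 3 arrays read 6.45, 6.85 and 7.03 in converted cells, 5.23, 6.31 and 5.70 in EOS3F-28 and 5.35, 6.31 and 5.65 in EOS3F-29. They read 3.24, 2.80 and 2.93 in J1 cells, against 3.13, 3.16 and 3.27 in MEFs and 4.67, 4.74 and 4.96 in partial cells. Nr1h5 was thus above the fibroblast level in every line made from the CD1 fibroblasts and at the fibroblast level in the J1 ES cells, with no overlap between J1 arrays and those of any iPS line. The difference from J1 was 3.79 ± 0.24 in converted cells and 2.77 ± 0.21 in full iPS cells. The J1 values lay below the array medians, where RMA, the authors' normalization, compresses differences, so no fold change is given. The order of the means was converted, EOS3F-29, EOS3F-28, partial, MEF and J1, in which the full lines (5.77 and 5.75) and the last pair (3.18 and 2.99) lay within their spread.

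Tcl1 encodes a small protein that binds AKT kinases and promotes their activity, and it is used as a marker of naive ES cells. Its arrays read 7.69, 8.13 and 8.22 in converted cells and 6.94, 6.54 and 6.88 in J1 cells. They read 5.20, 5.39 and 5.40 in EOS3F-28 and 5.16, 5.84 and 5.96 in EOS3F-29, and 3.64 to 4.01 over the MEF and partial arrays. The 3 states did not overlap, with converted cells above J1 cells and J1 cells above both full lines. Tcl1 was 2.52 ± 0.16 higher in converted than in full iPS cells, 1.22 ± 0.18 higher in converted than in J1 cells and full iPS cells differed from J1 cells by -1.30 ± 0.16.

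Ooep, an RNA-binding KH-domain protein of the subcortical maternal complex of the oocyte, was, like Tcl1, highest in converted cells. Its arrays read 8.35, 8.65 and 8.47 there, 6.48, 7.17 and 6.86 in EOS3F-28, 6.66, 7.50 and 7.19 in EOS3F-29 and 7.06, 7.22 and 7.43 in J1 cells. The full lines overlapped J1 cells, and every converted array was above all of these. The difference was 1.52 ± 0.16 from full iPS cells and 1.25 ± 0.19 from J1 cells.

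Galnt6 encodes an enzyme that starts mucin-type O-glycosylation by adding N-acetylgalactosamine to proteins. It read 5.28, 5.34 and 5.60 in converted cells, 4.53, 4.94 and 4.86 in EOS3F-28, 4.79, 5.11 and 4.84 in EOS3F-29 and 3.74, 4.17 and 3.75 in J1 cells. Among the pluripotent groups the order was that of Nr1h5, with converted cells first, full lines next and J1 cells lowest, near the 3.55 to 3.80 of the partial cells. The J1 arrays overlapped the partial arrays and were below every full iPS array, by 0.96 ± 0.13 on average. The Galnt6 mean in J1 cells (3.89) lay below the array medians, where RMA compresses differences.

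The 250 bases before the annotated start site of Tcl1, Ooep, Nr1h5 and Trh are shown because Tcl1 and Ooep followed each other over the arrays (Pearson r = 0.947 over 18 arrays, which share the group structure), Nr1h5 was low in J1 cells and Trh had its highest mean there. Trh correlated with Ooep at 0.913, with Tcl1 at 0.825 and with Nr1h5 at 0.383. They are RefSeq sequences on GRCm38.p6, from the minus strand in all 4 cases, and read 5′ to 3′ toward the start. Tcl1 is chr12:105222738-105222987, Ooep chr9:78378589-78378838, Nr1h5 chr3:102964134-102964383 and Trh chr6:92244651-92244900. Capitals mark matches, on either strand, to the Klf and Sp motif GGGCGGG and to the Sox motif ACAAAG.
Tcl1: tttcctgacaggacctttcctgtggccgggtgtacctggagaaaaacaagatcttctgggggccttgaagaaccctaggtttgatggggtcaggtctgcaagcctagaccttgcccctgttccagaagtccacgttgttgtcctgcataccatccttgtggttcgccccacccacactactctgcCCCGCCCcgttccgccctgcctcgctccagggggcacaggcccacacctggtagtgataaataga
Ooep: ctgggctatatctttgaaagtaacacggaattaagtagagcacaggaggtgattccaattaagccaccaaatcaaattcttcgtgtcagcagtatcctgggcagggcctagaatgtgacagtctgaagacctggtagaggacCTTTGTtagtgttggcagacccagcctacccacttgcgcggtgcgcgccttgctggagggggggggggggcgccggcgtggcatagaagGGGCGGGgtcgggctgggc
Nr1h5: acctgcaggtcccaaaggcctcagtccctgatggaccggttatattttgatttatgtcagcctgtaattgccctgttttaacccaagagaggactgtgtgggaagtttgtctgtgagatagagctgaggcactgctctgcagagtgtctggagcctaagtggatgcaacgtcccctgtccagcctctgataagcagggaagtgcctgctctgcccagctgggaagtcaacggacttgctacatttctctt
Trh: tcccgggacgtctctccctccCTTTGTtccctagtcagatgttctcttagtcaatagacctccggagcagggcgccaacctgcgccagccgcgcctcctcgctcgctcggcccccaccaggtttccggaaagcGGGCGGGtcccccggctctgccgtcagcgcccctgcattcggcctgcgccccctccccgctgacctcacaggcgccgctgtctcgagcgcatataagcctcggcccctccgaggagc
GGGCGGG or its reverse complement was in the windows of Tcl1, Ooep, Trh and 1 of 2 Galnt6 start sites, and is in 23.4% of 32851 such windows. ACAAAG or its reverse complement was in those of Ooep, Trh, Dnah8 and the other Galnt6 start site, and is in 16.5%. The other motifs searched on both strands were the octamer ATGCAAAT (1.6% of windows), the Esrrb core AAGGTCA (4.08%), CACACCC (6.93%) and the TATA box TATAAA (12.4%), and none of these was in the windows searched for the 7 members with a sequence used here. Nr1h5 had no match to any of the 6 motifs in this window. A match describes the letters only, and the motifs do not overlap one another here.

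Fbxo15, Trh, Dnah8 and H2ax had their highest mean in J1 cells. Fbxo15 is an F-box protein, the substrate-binding part of an SCF ubiquitin ligase, and a known target of Oct4 and Sox2 whose locus served as an early reporter of reprogramming. Its arrays read 6.94, 6.34 and 6.65 in J1 cells and 6.25, 6.19 and 6.37 in converted cells, so that these groups overlapped. The full lines were lower, at 5.34, 5.76 and 5.42 in EOS3F-28 and 4.44, 4.98 and 4.88 in EOS3F-29, with no overlap with J1 or converted arrays. Full iPS cells differed from J1 cells by -1.51 ± 0.18, and converted cells were 1.14 ± 0.18 above full iPS cells.

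Trh encodes the precursor of thyrotropin-releasing hormone, a hypothalamic peptide hormone. It read 10.15, 8.93 and 9.78 in J1 cells, 9.40, 8.63 and 8.78 in converted cells, 8.72, 9.01 and 9.01 in EOS3F-28 and 8.48, 8.57 and 9.06 in EOS3F-29. These groups all overlapped, and the J1 mean was the highest with the widest spread (9.62 ± 0.63, SD, n = 3). Full iPS cells differed from J1 cells by -0.81 ± 0.21 and converted cells by -0.68 ± 0.24. Without replicate 1 of the feeder-grown groups, which removes the highest J1 array, full iPS cells differed from J1 by -0.44.

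Dnah8, a heavy chain of the outer dynein arm that drives sperm tails, read 5.36, 5.35 and 6.0 in J1 cells. It read 4.36, 4.96 and 4.70 in EOS3F-28, 3.73, 4.29 and 3.88 in EOS3F-29 and 3.64, 3.98 and 4.06 in converted cells. J1 arrays were above all others, and the lowest of the converted arrays was only slightly above the 3.17 to 3.52 of MEFs and partial cells. The difference of converted from J1 cells was -1.68 ± 0.19 and that of full iPS from J1 cells -1.25 ± 0.16. The Dnah8 mean lay below the array medians in converted cells (3.89) and within their range in EOS3F-29 (3.97), where RMA compresses differences.

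H2ax encodes the histone H2A variant that is phosphorylated beside DNA breaks. It was above the all-array median in every group, at 8.10, 8.0 and 8.18 in J1 cells, 6.97, 7.24 and 7.20 in converted cells, 6.26, 6.10 and 6.05 in EOS3F-28 and 6.63, 6.66 and 6.91 in EOS3F-29. J1 arrays stood above all others, converted arrays came next, and EOS3F-28 was at the low end of the MEF arrays (6.49, 6.95 and 6.04). The difference of full iPS from J1 cells was -1.66 ± 0.14, and that of converted from J1 cells -0.96 ± 0.16. The probe set that H2ax shares among 19 gene symbols did not show this order, at group means of 3.66 to 4.41 and a difference of -0.00 ± 0.24 between full iPS and J1 cells.

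Pla2g1b and Cbln1 took courses of their own. Pla2g1b, a secreted phospholipase A2 of the pancreas, read 7.56, 7.49 and 7.59 in J1 cells and was lowest there among the pluripotent groups. It read 8.29, 8.29 and 8.67 in converted cells, 8.52, 8.85 and 8.57 in EOS3F-28 and 8.30, 8.46 and 8.31 in EOS3F-29. Converted cells overlapped both full lines, and every J1 array was below all of them, by 0.96 ± 0.14 for full iPS and 0.87 ± 0.16 for converted cells.

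Cbln1, a secreted cerebellar protein that organises synapses, separated the full iPS lines from each other. It read 3.18, 3.68 and 3.60 in EOS3F-28 and 4.99, 5.72 and 5.29 in EOS3F-29. Converted cells read 5.08, 5.19 and 5.14, J1 cells 4.23, 4.82 and 4.88, MEFs 3.33 to 3.63 and partial cells 3.55 to 3.68. EOS3F-28 was at the level of MEFs and partial cells, and EOS3F-29 overlapped converted cells. The mean of both full lines, at -0.23 ± 0.16 from J1 cells, therefore describes neither, since EOS3F-28 differed from J1 by -1.15 ± 0.19 and EOS3F-29 by 0.69 ± 0.19.

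**Figure D2:**
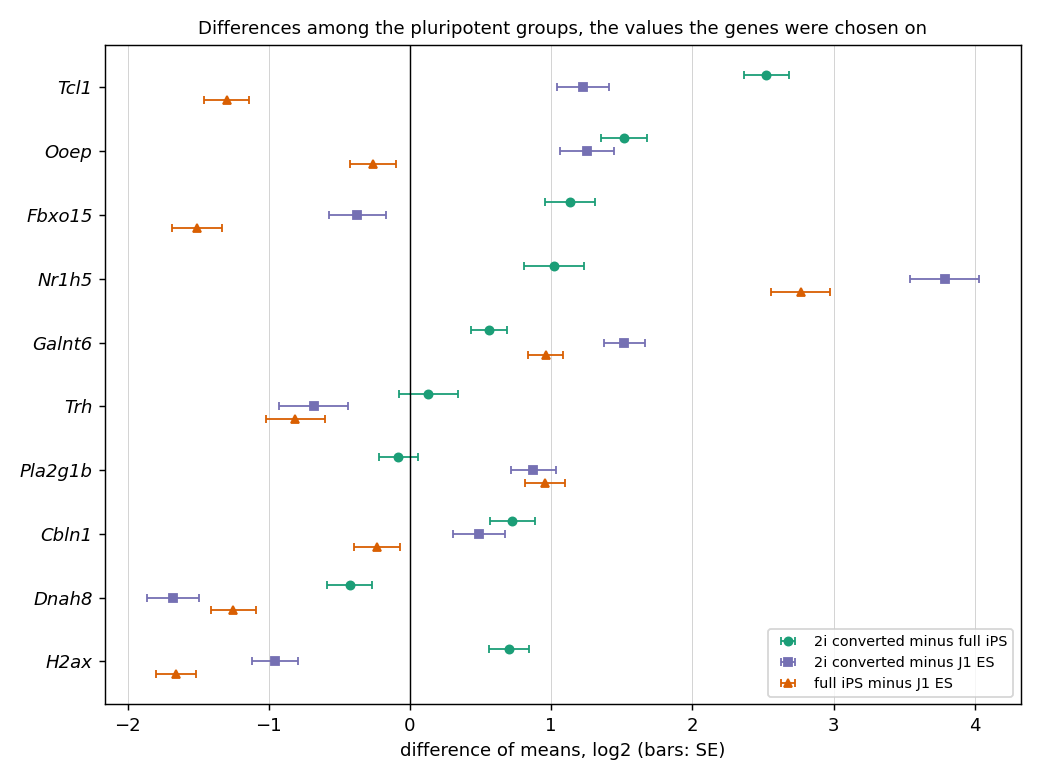
Differences of group means (x axis, log2, bars SE) among converted, full iPS and J1 cells for the 10 genes (y axis), the values on which they were chosen. Nr1h5 has the widest separations, at 3.79 and 2.77 from J1 cells. H2ax, Dnah8, Fbxo15 and Trh lie left of 0 in both comparisons with J1.

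Tests were made on comparisons other than those among converted, full iPS and J1 cells on which the genes were chosen. The mean of the 12 pluripotent arrays (converted, EOS3F-28, EOS3F-29 and J1) was set against MEFs and against partial cells, partial cells against MEFs, and EOS3F-28 against EOS3F-29. All but partial cells against MEFs use arrays on which the genes were chosen. The genes had been named with these arrays in view, so the counts and p-values describe them and are no independent support. All adjusted p-values are from limma with Benjamini-Hochberg adjustment over all 19937 genes.

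Against MEFs all 10 genes were called higher in the mean of the 12 pluripotent arrays. Of all genes, 22.1% were called higher and 19.6% lower. Single groups did not all follow this mean. Nr1h5 in J1 cells (2.99 against 3.18 in MEFs) and H2ax in EOS3F-28 (6.14 against 6.49) had lower means. Cbln1 in EOS3F-28 was near the MEF mean (3.49 against 3.43). The size ran from 0.53 ± 0.13 for H2ax (adjusted p = 0.00277) to 5.43 ± 0.19 for Trh (adjusted p = 8.68e-13). Pla2g1b was next, at 4.84 ± 0.13, followed by Ooep at 3.20 ± 0.15 and Fbxo15 at 3.04 ± 0.16. H2ax no longer passed when MEF replicate 3 was left out (0.30, adjusted p = 0.0547) or when each array was centred on housekeeping genes (0.33, adjusted p = 0.0544). The culture of the MEFs differed from that of the other cells, and 20 of 22 fibroblast and feeder markers were lower in the pluripotent arrays.

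Against the partial line 9 of the 10 were higher, where 9.11% of all genes were called higher and 15.6% lower. Trh was higher by 4.75 ± 0.19 and Pla2g1b by 4.20 ± 0.13, both over 10-fold, and Tcl1 and Ooep by 2.57 ± 0.15 and 2.65 ± 0.15. The mean again covers groups that part, since EOS3F-28 was below the partial line for H2ax (6.14 against 6.43) and Cbln1 (3.49 against 3.60). Nr1h5 was the gene not called, at 0.53 ± 0.19 (adjusted p = 0.0528), with J1 cells below and the other groups above the partial line. It passed with the replicate number as a block (adjusted p = 0.0227) and without replicate 1 of the feeder-grown groups (0.60, adjusted p = 0.0145). None of the 22 fibroblast and feeder markers was called in this comparison, with a median difference of -0.17 and 3110 genes called lower in all.

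In the partial line 4 of the genes were higher than in MEFs, where 13.7% of all genes were called higher and 10% lower. Nr1h5 was 1.61 ± 0.24 higher (adjusted p = 9.1e-05), Fbxo15 0.98 ± 0.20 (adjusted p = 0.00152), Pla2g1b 0.64 ± 0.16 (adjusted p = 0.00652) and Ooep 0.55 ± 0.19 (adjusted p = 0.0428). The Ooep call was lost when any 1 partial array, or MEF replicate 2 or 3, was left out, at adjusted p-values from 0.0654 to 0.145. Trh was 0.68 ± 0.24 higher and missed the threshold (adjusted p = 0.0506), and without replicate 1 of the feeder-grown groups it passed (0.72, adjusted p = 0.0138). Tcl1 differed by 0.10 ± 0.18, Cbln1 by 0.17 ± 0.19, Dnah8 by 0.14 ± 0.19 and H2ax by -0.07 ± 0.16. For comparison, Pou5f1, whose coding sequence the retroviruses carry, was 7.79 ± 0.16 higher in partial cells than in MEFs, and Zfp42 differed by -0.01 ± 0.22.

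Between the full lines Cbln1 was the only one of the 10 genes called, at -1.84 ± 0.19 in EOS3F-28 against EOS3F-29 (adjusted p = 3.96e-05). Of all genes, 0.532% were called there in either direction. The calls over all genes fell from 106 to 43 without EOS3F-28 replicate 2 or replicate 3, to 53 and 55 without EOS3F-29 replicate 2 and replicate 3, and to 62 without EOS3F-28 replicate 1. Fbxo15 at 0.74 ± 0.20 and Dnah8 at 0.71 ± 0.19 were higher in EOS3F-28 with no overlap of arrays, and H2ax at -0.60 ± 0.16 was lower, also without overlap, with adjusted p-values of 0.144, 0.123 and 0.147. Pla2g1b did not overlap either, at 0.29 ± 0.16 (adjusted p = 0.537). The share of all genes without overlap between these lines is not given here, so the lack of overlap is a description only. Dnah8 passed with the replicate number as a block (adjusted p = 0.0368), which makes 2 genes called. Nr1h5 differed by -0.02 ± 0.24, and its level above J1 cells was found in both lines.

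**Figure D3:**
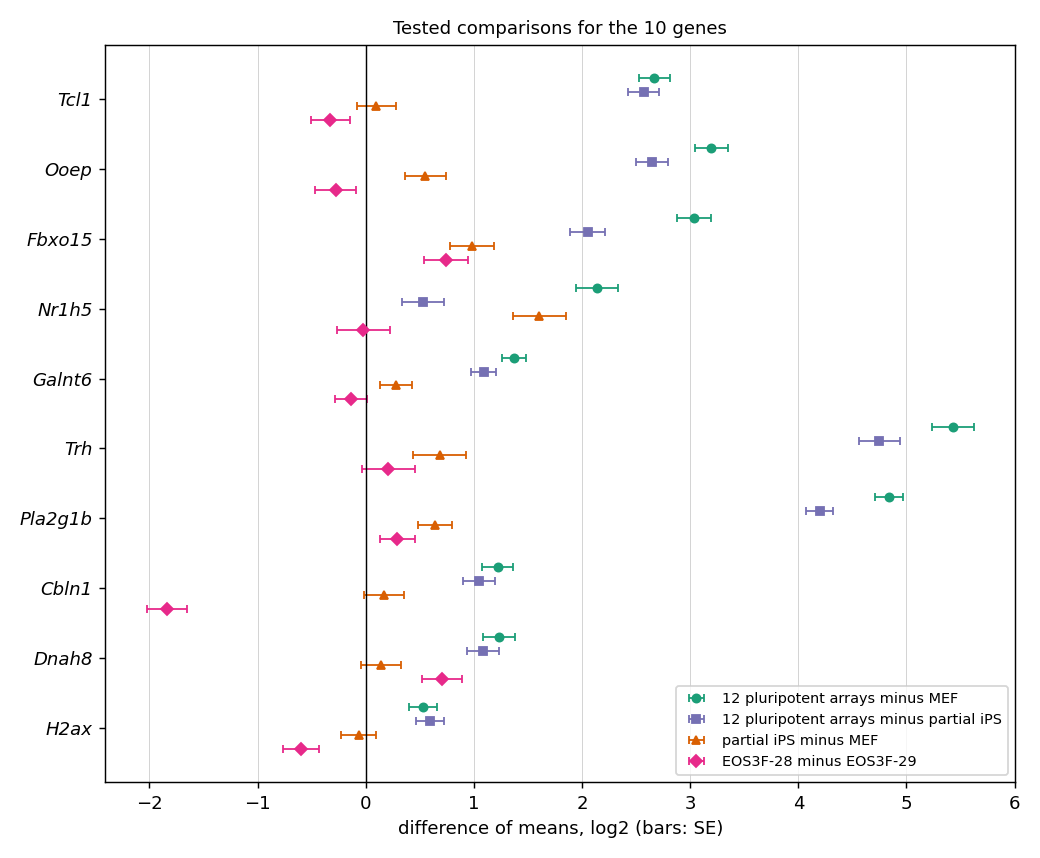
Differences of means (x axis, log2, bars SE) of the 10 genes (y axis) in the 4 tested comparisons. Trh and Pla2g1b lie beyond 4.0 on the log2 scale against both MEFs and partial cells, Nr1h5 is the gene with its larger step between MEFs and partial cells, and Cbln1 alone lies far to the left for EOS3F-28 against EOS3F-29.

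Each gene's relatives were taken from lists of its family or pathway, and their counts stand beside the shares of all genes given above for each comparison. For Nr1h5, 11 other receptors, partners and targets of the LXR and FXR group were measured, and 1 was called higher in the pluripotent arrays than in partial cells. That gene was Fgf15, an FXR target in the gut and an embryonic growth factor, at 1.51 ± 0.13 (adjusted p = 1.35e-07). Unlike Nr1h5 it was near level in J1 (6.84) and converted cells (6.76), which differed by -0.08 ± 0.17. Full iPS cells differed from J1 cells by -0.81 ± 0.14 in Fgf15 (adjusted p = 0.00284). Converted cells were 0.73 ± 0.14 above full iPS cells (adjusted p = 0.00593). The receptor Nr1h4 (FXR-alpha) stayed between group means of 3.07 and 3.26.

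For Tcl1, none of 7 relatives and AKT genes was higher and 2 were lower in the pluripotent arrays than in MEFs. Akt1, a kinase that Tcl1 binds, differed by -1.70 ± 0.21 (adjusted p = 4.27e-06), and the paralogues Tcl1b3, Tcl1b4 and Tcl1b5, which lie next to Tcl1 on chromosome 12, stayed between 2.57 and 3.72 in all groups. For Ooep, 4 of 8 maternal-complex genes and relatives were higher and 1 lower than in partial cells, with a median difference of 0.22 over the 8. The KH-domain relative Dppa5a, its direct neighbour on chromosome 9, was 5.05 ± 0.22 higher (adjusted p = 2.07e-11), whereas the complex partner Nlrp5 stayed between 2.96 and 3.15.

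Of 18 other genes of mucin-type O-glycosylation, 2 were higher and 9 lower in the pluripotent arrays than in MEFs. The list holds GalNAc transferases and also C1galt1, which extends the glycan, and its chaperone C1galt1c1, both among the lower genes. Galnt18, at -2.38 ± 0.19, and Galnt2, at -1.37 ± 0.13, went opposite to Galnt6. Of 8 other SCF ubiquitin ligase genes, 4 were higher and none lower than in MEFs, led by Fbxo5, a cell-cycle F-box protein, at 1.42 ± 0.18 (adjusted p = 3.87e-06). Against partial cells 2 of these SCF genes were higher and 2 lower. Of 6 other cerebellin genes and partners, 3 were higher and none lower than in MEFs, namely Cbln2, Cbln3 and Nrxn2, by 0.29 to 0.34. Against partial cells none was higher and Cbln3 was lower, and Cbln3 was 1.13 ± 0.15 higher in partial cells than in MEFs (adjusted p = 3.28e-05).

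The 10 other genes of TRH processing and reception held none that was higher in the pluripotent arrays than in MEFs, and 2 were lower. These were Cpe, a carboxypeptidase that trims prohormones, at -1.91 ± 0.24 and Pam, the enzyme that amidates them, at -1.25 ± 0.18. The receptors Trhr and Trhr2 stayed between 2.52 and 3.87. Trh was thus high in cells whose arrays showed its receptors near the low end of the scale. Of 11 listed genes, the other secreted phospholipases A2 and their receptor Pla2r1, 5 were higher and 1 lower than in MEFs. The lower one was the receptor (-0.85 ± 0.17, adjusted p = 0.000507), and Pla2g10 was the only one with a 2-fold difference, at 1.00 ± 0.09 (adjusted p = 1.81e-07).

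None of 19 other genes, axonemal dynein chains and the ciliary transcription factor Foxj1, was called against partial cells, and 5 were called higher than in MEFs, none by 2-fold. Of 16 other H2AX signalling and H2A variant genes, 9 were higher and 1 lower than in MEFs, and 4 were higher and 3 lower than in partial cells. Those higher than in MEFs included the checkpoint kinases Chek2, at 1.65 ± 0.16, and Chek1, at 1.61 ± 0.23, and Brca1, a DNA repair gene, at 1.39 ± 0.17. Macroh2a1, another H2A variant, was higher in partial cells than in MEFs (1.08 ± 0.17) and lower in the pluripotent arrays than in partial cells (-1.07 ± 0.13).

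The neighbourhood of the genes was checked next, with genes named here after their values were seen. Of 55 measured genes among the 3 on either side of each of the 10, 1 was called between converted and J1 cells, where 1.72% of all genes were. Between converted and full iPS cells 2 of the 55 were called, both higher (5.16% of all genes), and between full iPS and J1 cells 2 were higher and 6 lower (4.76%). The gene called between converted and J1 cells was Sycp1. Sycp1, a protein of the meiotic synaptonemal complex, lies next to Nr1h5 on chromosome 3. Its group means were 4.49 in converted cells, 3.66 and 3.76 in EOS3F-28 and EOS3F-29 and 2.84 in J1 cells, against 2.63 in MEFs and 2.73 in partial cells. It was 1.66 ± 0.13 higher in converted than in J1 cells (adjusted p = 1.57e-06) and 0.87 ± 0.11 higher in full iPS than in J1 cells (adjusted p = 0.000175). The order among pluripotent groups was thus that of Nr1h5. Partial cells differed from MEFs by 0.10 ± 0.13 in Sycp1 (adjusted p = 0.628). Outside converted cells its means lay below the array medians, where RMA compresses differences, so a missing step there is no contrast with Nr1h5. On the other side of Ooep from Dppa5a, Ddx43, a germline RNA helicase, was highest in J1 cells, with full iPS cells at -0.83 ± 0.16 from J1 (adjusted p = 0.00549). Outside J1 cells the Ddx43 means also lay below the array medians.

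H2az2, which encodes another H2A variant and lies elsewhere in the genome, had the same order of J1, converted and full iPS cells as H2ax. Its means were 7.33 in J1 cells, 6.61 in converted cells, 6.02 and 6.04 in EOS3F-28 and EOS3F-29, 5.83 in partial cells and 5.82 in MEFs. The difference of full iPS from J1 cells was -1.30 ± 0.10 (adjusted p = 6.26e-07) and that of converted from J1 cells -0.72 ± 0.11 (adjusted p = 0.00229). H2az2 was likewise picked after its values were seen. Of the 16 listed genes besides H2ax, 1 was called lower in converted than in J1 cells (1.72% of all genes called). Between full iPS and J1 cells 2 were called lower (4.76%). The variant gene H2az1 had another order, at 9.87 in J1 cells, 9.52 in converted cells and 9.76 and 9.66 in EOS3F-28 and EOS3F-29. Macroh2a1 stayed between 7.22 and 7.36 in these groups.

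**Figure D4:**
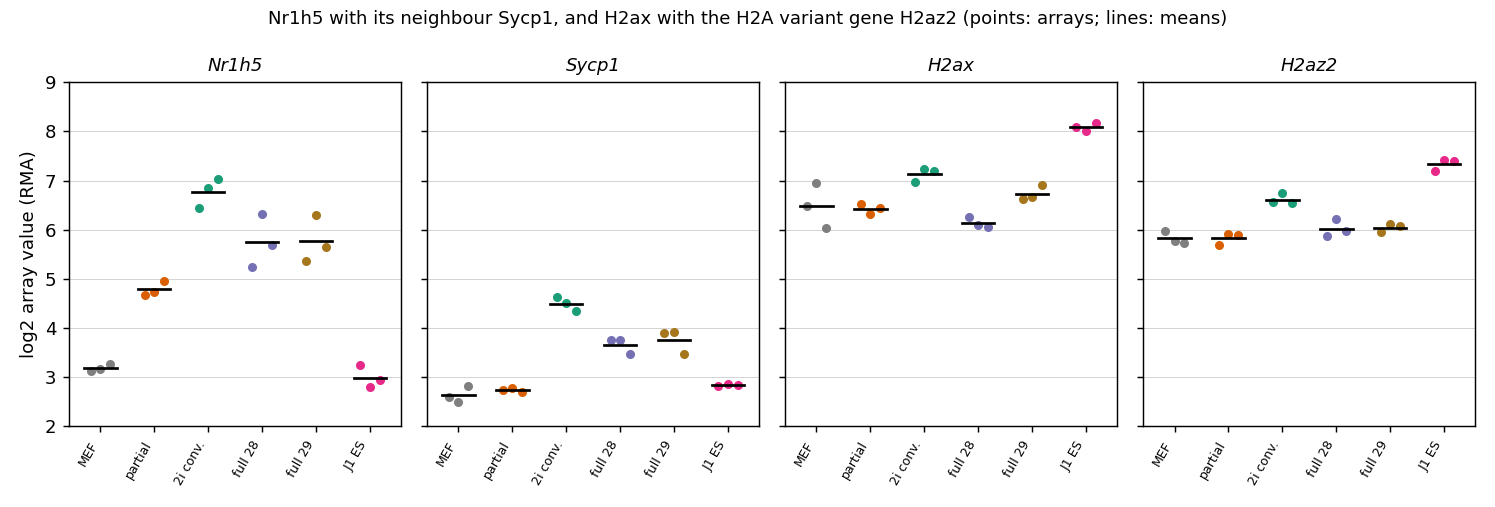
Log2 array values (y axis) of Nr1h5, its neighbour Sycp1, H2ax and H2az2 in the 6 groups (x axis), with points for arrays and lines for means. Sycp1 is at 4.49 in converted and 2.84 in J1 cells, in the order of Nr1h5, and at 2.73 in partial cells, below the array medians. H2az2 is highest in J1 cells (7.33) like H2ax (8.09).

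The genes with the courses most like each member over the 18 arrays were looked up among 5433 genes with a highest group mean of at least 6, by Pearson correlation. All arrays share the 6-group structure, so these values are descriptions. Trh was nearest to Utf1 (r = 0.989) and Zscan10 (0.989), chromatin and transcription factors of pluripotent cells, and Pla2g1b to Dnmt3l (0.986), the cofactor of de novo DNA methylation, and Epcam (0.982), an epithelial adhesion protein. Fbxo15 was nearest to Triml2 (0.972) and Rbbp4 (0.968). Tcl1 was nearest to Got1 (0.971), an aminotransferase of amino acid metabolism, and Mlh3 (0.957), a mismatch repair protein. Ooep was nearest to Morc1 (0.978), a germline silencing factor, and Cry1 (0.975), a circadian clock repressor.

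Nr1h5 was nearest to Slc25a12 (0.931), a mitochondrial aspartate-glutamate carrier whose mean was 8.31 in converted cells and 6.84 in J1 cells, and to Rmc1 (0.886), which read 7.71 and 6.34. Dnah8 was nearest to Gab1 (0.934), a signalling adaptor that read 8.14 in J1 and 6.66 in converted cells, and to Snrnp25 (0.878). H2ax was nearest to Edc4 (0.925) and Fxyd6 (0.920), Galnt6 to Septin1 (0.929) and Tbc1d13 (0.902), and Cbln1 to Fam160a2 (0.897) and Trp53i11 (0.875). Among the members, Trh and Pla2g1b were the closest pair (0.956), and Nr1h5 and H2ax the farthest apart (-0.337).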

How the data were processed

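Expression was measured on 18 arrays of biotin-labelled targets from total RNA, per the labels' protocols. The authors deposited log2 values for each probe set, and the submitters' processing notes name RMA. RMA sets the arrays to a like distribution and compresses differences near background. For RMA's version and the genome build the sources used here give nothing. The number of arrays bounds the precision. Of 34760 probe sets, 21640 had 1 gene symbol, 1321 several and 11799 none in the platform annotation, and the probe set with the highest mean stood for each of 19937 genes.

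In limma 3.58.1 (R 4.3.3), each group had 1 mean and all 18 arrays entered the model. A gene was called when its Benjamini-Hochberg adjusted p, taken over every gene, was under 0.05. The model was tested on simulated data. Alternatives were the mean of probe sets, cyclic loess, housekeeping centring, a filter on dim genes, every probe set, a trended robust variance, the replicate block, only the groups compared, and arrays or 1 full line left out. The members and lists were chosen with earlier results of these data known. Named genes are the members, the 2 nearest genes of each, up to 3 called list genes per comparison with at least a 2-fold change, and Pou5f1, Sox2, Nanog, Esrrb and Zfp42. List genes named for lying near background, neighbours, H2az1 and H2az2 were picked after their values were seen.

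Deviations of arrays with equal replicate numbers correlated at 0.414, 0.334 and 0.210 for the pluripotent arrays against partial cells and at 0.542, 0.639 and 0.149 for EOS3F-28 against EOS3F-29. The numbers were taken to pair arrays there, from the values and not the labels.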

Additional observations from a re-analysis of the deposited data

Results flagged for a closer look

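Cbln1 differed between the full iPS lines by -1.84 on the log2 scale (EOS3F-28 minus EOS3F-29). What singled it out is that both lines carry the same label, while the step from MEFs was absent in the means of EOS3F-28 (3.49 against 3.43 in MEFs) and present in EOS3F-29 (5.33). The difference itself was tested, with limma, at an adjusted p of 3.96e-05, and it was as large without replicate 1 of the feeder-grown groups (-1.86). The call stayed when each array of the full lines was left out in turn.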

How the results depend on the processing

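The number of members called stayed within 1.5 times in each tested comparison and alternative, except that the replicate block gave 2 in place of 1 for EOS3F-28 against EOS3F-29. There the block also raised the calls over all genes from 106 to 197, fitting only these groups lowered them to 46, and leaving out 1 array gave 43 to 102. Leaving out 1 array at a time gave 9 to 10 members against MEFs, 9 to 10 against partial cells, 3 to 4 for partial cells against MEFs and 1 between the full lines. Of 780 tested member values under alternatives, 750 kept direction and call, 10 lost and 13 gained the call, and 7 changed sign. Ooep in partial cells against MEFs lost its call with cyclic loess (adjusted p = 0.144), housekeeping centring (0.138) and every probe set tested (0.068). With the replicate block Trh passed in partial cells against MEFs (adjusted p = 0.0285), but the numbers do not pair arrays there (correlations 0.073, 0.064 and -0.137), nor for MEFs against the pluripotent arrays (-0.030, 0.053 and -0.056). The block changed no call other than those given for Nr1h5, Dnah8 and Trh.

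Sign changes were limited to uncalled or untested values. Nr1h5 between the full lines was 0.050 with cyclic loess, 0.028 without replicate 1 of the feeder-grown groups, a setting chosen after seeing the data, and -0.30 to 0.25 without single arrays. Tcl1 in partial cells against MEFs was -0.034 with housekeeping centring, and H2ax there ran from -0.29 to 0.16 without single arrays. Trh in converted minus full iPS cells was -0.084 with housekeeping centring, -0.21 without those feeder-rich arrays and -0.10 to 0.28 without single arrays. With EOS3F-29 alone standing for full iPS cells, Cbln1 was 0.69 in full iPS minus J1 cells. In converted minus full iPS cells, Cbln1 was then -0.20 and Pla2g1b was 0.062. Housekeeping centring moved the median of all genes by -0.20 against MEFs. By Spearman correlation 2 of 10 members kept their nearest gene. The cause of these changes was not tested. With 3 arrays a group, small differences near the low end of the scale are limited by the spread between arrays.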
